A study of Rattus norvegicus with 18 samples.

Results

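Total knee arthroplasty (TKA) was compared with sham surgery in the dorsal root ganglia (DRGs), where the sensory neurons of the limb have their cell bodies. The comparison takes the 6 rats labelled TKA and the 6 labelled sham, 12 of the 18 rats sequenced, and covers every transcript with enough counts, beyond the 56 that the study lists. All rats were Sprague Dawley, with 3 labelled male and 3 labelled female per group. Sham rats received isoflurane anesthesia, a cut through skin and fascia over the patella of the left knee, and sutures. TKA rats received the same anesthesia and skin incision, followed by opening of the joint and replacement of the left knee with stainless-steel prostheses. The sham joint was not opened, so opening the joint, cutting bone, and the implant cannot be told apart here. Left L3 and L4 DRGs were collected 24 h after surgery, and the 6 naive rats, which had no procedure, are given beside both groups. Each rat was 1 sample of whole ganglia, so fewer cells of a type and less RNA per cell cannot be told apart. The question is which transcripts differ in the ganglia when the knee is replaced and not only incised.

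A DRG holds large myelinated neurons that sense touch and position, small nociceptors that sense damage, and the satellite glia, Schwann cells, macrophages, vessels, and connective tissue around them. Injury of a peripheral axon or inflammation at its ending is known to switch on immediate early and stress transcription factors, neuropeptides, and cytokines in these ganglia. Cells answer such signals with inhibitors of the same pathways, among them Zfp36, which destabilizes cytokine mRNAs, Nfkbia, which holds NF-kB in the cytoplasm, Socs3, which blocks JAK-STAT signaling, and Dusp6, which inactivates ERK. Glucocorticoids, which the adrenal gland releases under stress, are known to act on several of these genes.

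Of the 15 named transcripts with the lowest p-values that were higher in TKA rats, 12 had a promoter at hand. The promoter of Nfkbia, Maff, and Ifitm3 is shown because, of these 12, they alone held an NF-kB-type motif, a CRE, or an AP-1 motif, whose factors are known to respond to injury, in the 250 bases before the start of the gene. The capitals mark that motif. The sequences are from RefSeq (GRCr8), not the build of the counts.
Nfkbia, chr6:78597073-78597322, minus strand, NF-kB-type motif: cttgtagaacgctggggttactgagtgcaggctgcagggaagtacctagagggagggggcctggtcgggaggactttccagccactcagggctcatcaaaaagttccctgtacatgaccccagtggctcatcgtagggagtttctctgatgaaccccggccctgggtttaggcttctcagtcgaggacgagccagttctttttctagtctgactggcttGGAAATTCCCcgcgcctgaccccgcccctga
Maff, chr7:112792537-112792786, plus strand, CRE: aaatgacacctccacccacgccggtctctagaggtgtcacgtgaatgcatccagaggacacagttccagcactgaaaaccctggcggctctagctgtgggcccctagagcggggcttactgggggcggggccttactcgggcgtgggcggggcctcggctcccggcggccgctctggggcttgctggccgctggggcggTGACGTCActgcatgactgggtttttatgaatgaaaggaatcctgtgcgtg
Ifitm3, chr1:205541759-205542008, minus strand, AP-1 motif: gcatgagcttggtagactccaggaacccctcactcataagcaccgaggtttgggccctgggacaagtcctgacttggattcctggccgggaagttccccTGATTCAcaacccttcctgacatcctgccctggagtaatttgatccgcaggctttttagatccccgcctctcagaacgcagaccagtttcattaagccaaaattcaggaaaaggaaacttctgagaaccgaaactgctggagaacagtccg
On both strands, GGGA, any base, and TTTCC (NF-kB-type) was found in 0.314% of 33469 RefSeq promoters of this length, TGACGTCA (CRE) in 1.59%, TGANTCA (AP-1) in 6.34%, and TTCNNNGAA (STAT) in 7.67%. A promoter was at hand for 12 of the 15 higher transcripts and for 9 of the 10 lower ones with the lowest p-values. The NF-kB-type motif was in 1 of the 12 higher (Nfkbia), the CRE in 1 (Maff), the AP-1 motif in 1 (Ifitm3), and the STAT motif in 2 (Apold1 and Ifitm3). Of the 9 lower, 1 held the AP-1 motif (Cryba2) and 1 the STAT motif (Abcb9). A match is a description of these letters and not of a bound site.

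Total counts ranged from 20684787 to 29343899 in TKA rats, from 20230562 to 24696431 in sham rats, and from 20519013 to 22953863 in naive rats. Levels are CPM, which divide each count by the TMM-scaled total of its library, with the lowest, highest, and median rat of each group. Of 41078 transcripts in the table, 15320 had enough counts to be tested with edgeR, and 3172 of these carry a gene symbol in the tables of the study. These symbols come mostly from tables sorted by difference, so transcripts with small differences mostly have none. TKA rat 4 is labelled female, but 3 transcripts counted almost only in males had 3472 counts in its library, against at least 3097 in males and at most 1 in the other females as labelled.

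TKA rats 2 and 6 stood apart from the other 10 rats of the comparison in several sums of cell type markers, though not in all. The 15 myelinating Schwann cell markers summed to 102312 CPM in TKA rat 2 and 55635 CPM in TKA rat 6, to 11343 to 19366 CPM in the other 4 TKA rats, and to 8245 to 19521 CPM in sham rats. Only 4 of 18 neuron markers carried a symbol, 3 of them neurofilaments. They summed to 17782 CPM in TKA rat 2 and 21313 CPM in TKA rat 6, to 28432 to 39069 CPM in the other 4, and to 33887 to 43710 CPM in sham rats. The 7 skeletal muscle markers reached 10281 CPM in TKA rat 2, 1222 CPM in TKA rat 6, and 1145 CPM in TKA rat 3, against 54.0 to 232 CPM in the other 3 TKA rats and 29.9 to 686 CPM in sham rats. For muscle, TKA rat 3 was thus also above every sham rat, and it remains in the values without TKA rats 2 and 6. Their range in naive rats was 28.8 to 278 CPM, so muscle markers were counted in every group. Macrophage markers (15) summed to 979 CPM in TKA rat 2, to 261 to 408 CPM in the other 5, and to 111 to 464 CPM in sham rats. Satellite glia markers (5) summed to 5371 CPM in TKA rat 2 and endothelial markers (8) to 623 CPM, against at most 1666 and 178 CPM in sham rats. TKA rat 6 was at 1527 and 354 CPM, so for satellite glia it was not above every sham rat. The fibroblast and nerve sheath markers were the only one of the 7 lists whose sums did not overlap between TKA and sham rats with all 6 TKA rats, at 1460 to 4160 CPM against 819 to 1411 CPM. Of the 16 such markers with a symbol, 14 got it only from the study's tables of TKA rats. Of the 15 summed, 5 are in the study's list. The markers were thus partly picked on differences in these rats, so the separation is not an independent test. The same limit holds for the other sums. All 4 neuron and all 8 endothelial markers got their symbol only from these tables. So did 13 of 15 Schwann cell, 12 of 15 macrophage, 4 of 5 satellite glia, and 4 of 7 muscle markers. In the 7 lists 0 markers were at 0 in all rats. Results are therefore given with all 6 TKA rats and, for part of the transcripts, also without TKA rats 2 and 6. A difference printed only with all rats can be smaller or larger without these 2. The part of tissue composition in these results was not tested.

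**Figure D1:**
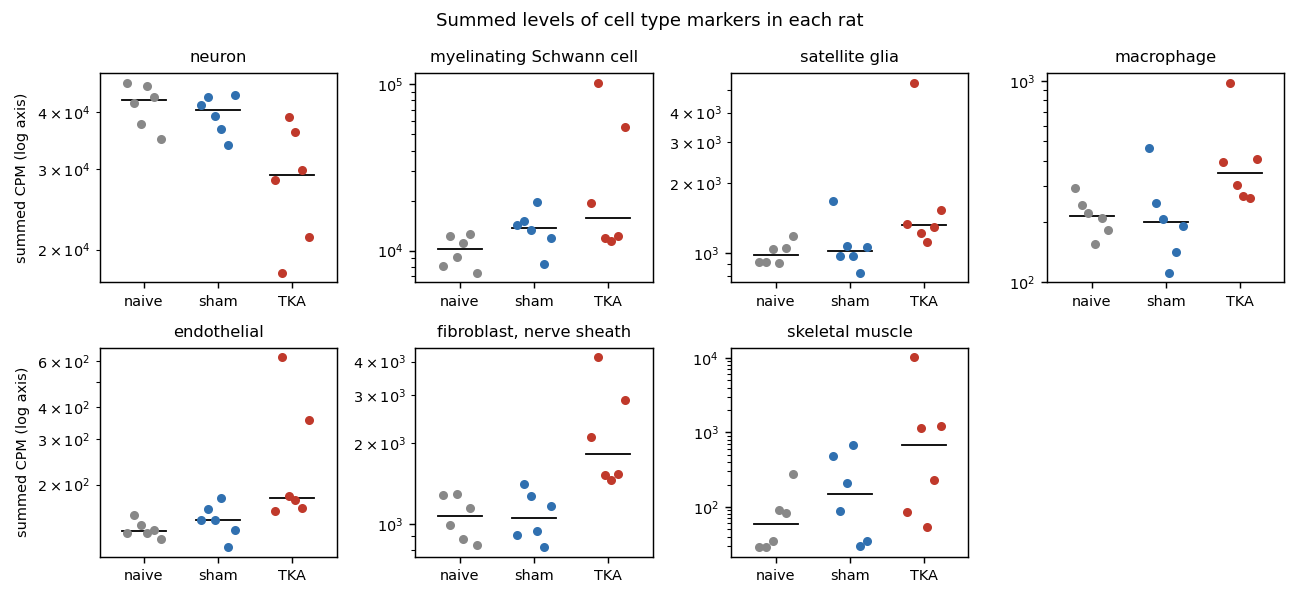
Summed level of the markers of each cell type in each rat (CPM, log axis), with points from left to right for rats 1 to 6 of the naive, sham, and TKA groups and a line at the median. TKA rats 2 and 6 lie above every sham rat for Schwann cell and endothelial markers, and TKA rat 3 slightly so for endothelial markers. All TKA rats lie above every sham rat for fibroblast markers. For neuron markers, TKA rats 1, 2, 5, and 6 lie below every sham rat, with rats 2 and 6 the lowest.

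No transcript passed the threshold when edgeR's quasi-likelihood test was fitted to the 12 TKA and sham rats. At an adjusted p under 0.05 and a difference of 1.5-fold or more, edgeR called 0 of 15320 transcripts (0.0%), with a lowest adjusted p of 0.196. At an unadjusted p under 0.05 there were 910 higher transcripts (5.94% of those tested) and 445 lower (2.9%), of which 1299 are outside the 56 of the study. With TKA rats 2 and 6 left out, the count was 518 higher (3.26%) and 529 lower (3.33%) of 15904, and 0 were called (edgeR lowest adjusted p = 0.0801). The surplus of higher transcripts was therefore not present without these 2 rats. Without TKA rat 2 alone the counts were 607 higher and 587 lower. Without TKA rat 6 alone they were 656 higher and 319 lower, so the surplus depended mostly on TKA rat 2. Other tests made calls on the same counts. DESeq2 with a fold-change prior called 56 (0.366%, 46 higher and 10 lower) and without a prior 62 (0.405%). Of the 56, 54 are in the study's list, which was chosen on these rats with the same tool. All 3 groups in one edgeR fit called 11 (0.0685%), all higher, all in the study's list, and all also called by DESeq2 with the prior. In that edgeR fit the adjusted p was 0.0202 for Zfp36, 0.0396 for Apold1, Cebpd, Clec2g, Enc1, Ifitm3, Nfkbia, and Tubb6, 0.0402 for Cldn1, 0.0428 for Steap4, and 0.0467 for Rpl26-ps2. Adjusted p-values given below are those of the fit to 12 rats unless another fit or comparison is named. With sample quality weights, limma voom called 1 (0.00653%), Zfp36.

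For 68 transcripts (0.444%) all 6 TKA rats lay above all 6 sham rats, and for 57 (0.372%) all 6 lay below. Among named transcripts these shares were 2.11% and 1.58%. Of the 68, 41 are outside the study's list, with a median log2 fold-change of 0.51 with all rats and 0.36 without TKA rats 2 and 6. Of the 57, 52 are outside the list, with a median of -0.49 and -0.33. Only 14 of these 41 and 17 of these 52 differed by at least 1.5-fold, so most lay under the fold threshold that the study used. In the study's list, the 47 higher transcripts had a median log2 fold-change of 1.14 and the 9 lower ones of -1.99. Without TKA rats 2 and 6 these were 0.90 and -1.87, and 25 of the 47 and 6 of the 9 kept at least 0.8 of their log2 fold-change.

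Several stress transcription factors and inhibitors of cytokine signaling were higher in TKA rats by about the same amount with and without TKA rats 2 and 6. Zfp36 (ENSRNOT00000090129) was at 45.8 to 71.0 (median 52.6) CPM in TKA rats, 13.7 to 34.2 (median 20.1) CPM in sham rats, and 15.9 to 22.1 (median 19.9) CPM in naive rats. The TKA rats did not overlap with the sham rats, while sham and naive rats did. The log2 fold-change over sham was 1.31 (standard error 0.21, edgeR adjusted p = 0.196) and 1.31 without TKA rats 2 and 6. Cebpd (ENSRNOT00000074586), a transcription factor of the acute phase response, was at 60.9 to 88.8 (median 69.7) CPM in TKA rats, 25.6 to 49.4 (median 33.6) CPM in sham rats, and 19.2 to 38.2 (median 24.4) CPM in naive rats. Each TKA rat exceeded every sham rat, at a log2 fold-change of 0.98 (standard error 0.16, edgeR adjusted p = 0.196) and of 1.03 without the 2 rats. Maff (ENSRNOT00000017181), a small MAF transcription factor, was at 10.999 to 14.2 (median 12.8) CPM in TKA rats, 5.71 to 8.26 (median 6.65) CPM in sham rats, and 5.12 to 10.5 (median 8.24) CPM in naive rats. Its groups were apart as well, at a log2 fold-change of 0.89 (standard error 0.15, edgeR adjusted p = 0.199) and 0.93 without the 2 rats. Sham and naive rats overlapped, at a log2 fold-change of sham over naive of -0.21 (edgeR adjusted p = 0.998).

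Nfkbia (ENSRNOT00000009894) was at 36.1 to 94.9 (median 46.5) CPM in TKA rats, 20.4 to 30.6 (median 24.8) CPM in sham rats, and 26.7 to 31.8 (median 30.4) CPM in naive rats. TKA rat 2 was the highest, and all 6 TKA rats were above every sham rat. The log2 fold-change was 1.08 (standard error 0.22, edgeR adjusted p = 0.282) with all rats and 0.88 without rats 2 and 6. Socs3 (ENSRNOT00000003940), named after its values were seen, was at 8.74 to 48.5 (median 16.3) CPM in TKA rats, 5.22 to 11.4 (median 7.49) CPM in sham rats, and 3.77 to 7.96 (median 4.55) CPM in naive rats. In 5 TKA rats it exceeded every sham rat, and its log2 fold-change was 1.46 (standard error 0.39, edgeR adjusted p = 0.446) with all rats and 1.74 without the 2 rats. Dusp6 (ENSRNOT00000037844) was at 21.0 to 43.6 (median 34.2) CPM in TKA rats and 15.7 to 23.1 (median 17.9) CPM in sham rats, with 5 TKA rats above every sham rat and a log2 fold-change of 0.87 (edgeR adjusted p = 0.234). Of the 14 tested members of the list of feedback inhibitors (25 symbols), 10 were higher at an unadjusted p under 0.05 and 0 lower, against 26.5% higher and 12.7% lower among all named transcripts. Without TKA rats 2 and 6, 10 of the 14 were higher and 0 lower, against 10.5% higher and 9.87% lower among all named transcripts. Their median log2 fold-change was 0.72, and 0.52 without TKA rats 2 and 6, against 0.20 and 0.04 for all named transcripts and 0.01 and -0.02 for all 15320. The lists were chosen with earlier results of these rats known, 4 of these 14 are in the study's list, and members without a symbol are mostly those with small differences, so these counts describe named transcripts and not the pathway as a whole.

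Among immediate early and AP-1 transcription factors, 10 of 13 tested (26 symbols) were higher at an unadjusted p under 0.05 and 0 lower, with a median log2 fold-change of 0.58, and 0.54 without the 2 rats. The shares among all named transcripts were 26.5% higher and 12.7% lower. Fosl2 (ENSRNOT00000077894), an AP-1 subunit, was at 4.15 to 9.64 (median 5.34) CPM in TKA rats and 1.73 to 3.47 (median 2.77) CPM in sham rats, each TKA rat being above every sham rat. For Fosl2 the log2 fold-change was 1.14 (standard error 0.26, edgeR adjusted p = 0.325) and 0.95 without the 2 rats. Fos (ENSRNOT00000010712), named after its values were seen, was at 7.36 to 44.4 (median 23.4) CPM in TKA rats and 6.82 to 17.97 (median 11.8) CPM in sham rats, so its groups overlapped (log2 fold-change 0.94, edgeR adjusted p = 0.543). Egr1 (ENSRNOT00000026303), likewise named afterwards, was at 12.3 to 87.1 (median 48.8) CPM in TKA rats and 21.5 to 36.1 (median 27.7) CPM in sham rats. Its lowest TKA value was that of rat 2, below every sham rat, and 4 TKA rats were above every sham rat. Egr2 (ENSRNOT00000000792), which also drives myelination in Schwann cells, was at 40.3 to 249.97 (median 68.8) CPM in TKA rats and 21.1 to 49.1 (median 28.7) CPM in sham rats. For Egr2, the log2 fold-change of 1.67 (standard error 0.40, edgeR adjusted p = 0.367) was 0.90 without TKA rats 2 and 6, the rats with the highest Schwann cell markers.

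In the list of CEBP and other stress factors, 8 of 13 tested (18 symbols) were higher at an unadjusted p under 0.05, and 10 without TKA rats 2 and 6, with medians of 0.50 and 0.42. Of all named transcripts, 26.5% were higher with all rats and 10.5% without these 2. Elf2 (ENSRNOT00000047635), an ETS transcription factor, was at 3.06 to 6.52 (median 4.40) CPM in TKA rats, 1.39 to 2.33 (median 2.06) CPM in sham rats, and 2.18 to 3.21 (median 2.83) CPM in naive rats. No TKA rat overlapped with a sham rat, at a log2 fold-change of 1.23 (standard error 0.27, edgeR adjusted p = 0.293). Against naive rats it was 0.68, and sham rats were the lowest of the 3 groups. In the p53 and growth arrest list, 7 of 8 tested (16 symbols) were higher at an unadjusted p under 0.05, with a median of 0.65 and of 0.61 without the 2 rats. Cdkn1a (ENSRNOT00000000628), which encodes the cell cycle inhibitor p21, was at 8.67 to 22.0 (median 11.6) CPM in TKA rats, 2.27 to 8.40 (median 5.04) CPM in sham rats, and 1.13 to 4.31 (median 3.90) CPM in naive rats. Each TKA rat was above every sham rat, and the log2 fold-change was 1.36 (standard error 0.34, edgeR adjusted p = 0.373) and 1.22 without the 2 rats.

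**Figure D2:**
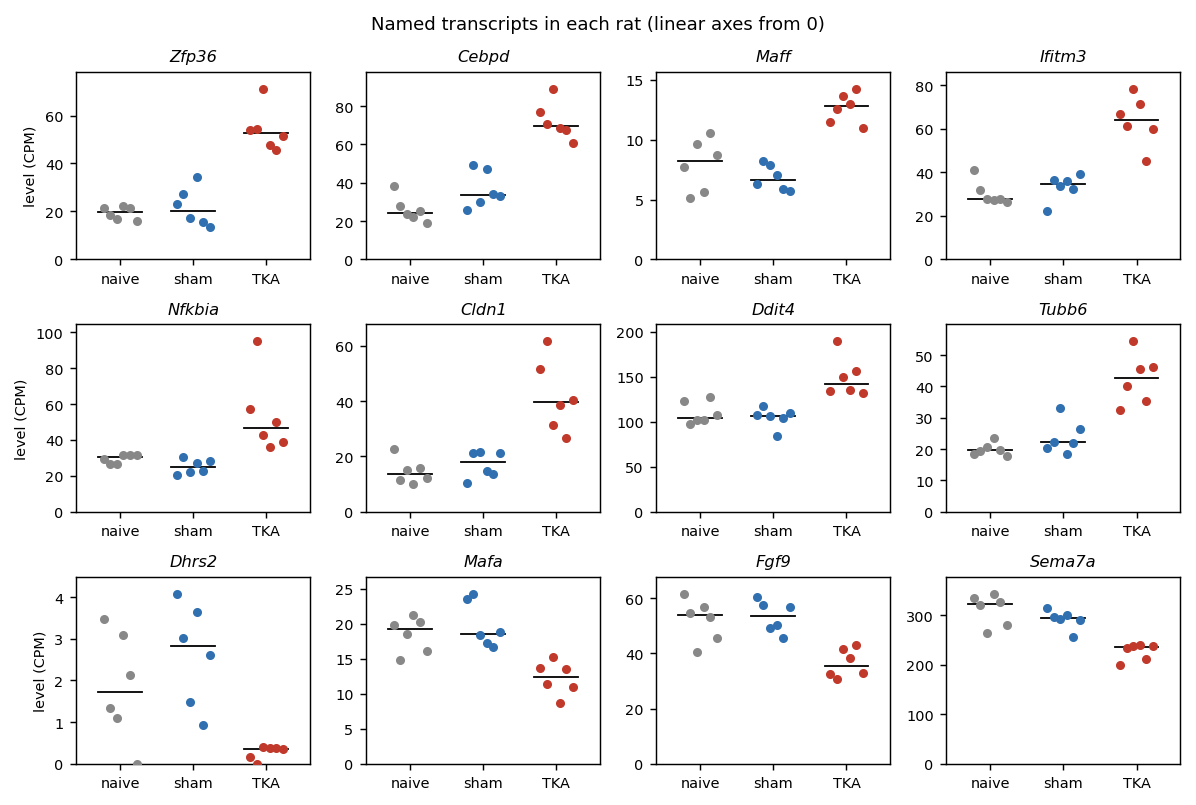
Level of 12 named transcripts in each rat (CPM, linear axes from 0), with points from left to right for rats 1 to 6 of the naive, sham, and TKA groups and a line at the median. The 6 TKA rats lie beyond the 6 sham rats in every panel except that of Tubb6, above them for the first 7 and below them for Dhrs2, Mafa, Fgf9, and Sema7a, and sham and naive rats overlap throughout.

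Genes known to respond to glucocorticoids had the largest share of higher members of the 18 lists with all rats, but not without TKA rats 2 and 6, where 6 other lists had a larger share. Of 22 tested (25 symbols), 20 were higher at an unadjusted p under 0.05 and 0 lower, with a median log2 fold-change of 0.97. Without TKA rats 2 and 6, 15 were higher and 1 lower, with a median of 0.55. Among all named transcripts 26.5% were higher and 12.7% lower, and 10.5% and 9.87% without the 2 rats. For 18 of the 22 the symbol came only from the study's tables of TKA rats. The rank of this list therefore depends on which members carry a symbol and is not an independent test. Of the 22, 11 are also in another list, 3 of them among the stress factors (Cebpd, Klf9, and Klf15), 4 among the feedback inhibitors (Dusp1, Nfkbia, Errfi1, and Tsc22d3), and Cdkn1a in the p53 list, and 9 are in the study's list. Ddit4 (ENSRNOT00000085026), an inhibitor of mTORC1 outside that list, was at 132 to 189 (median 142) CPM in TKA rats, 83.6 to 118 (median 106) CPM in sham rats, and 96.9 to 127 (median 104) CPM in naive rats. Every TKA rat was above every sham and naive rat, at a log2 fold-change over sham of 0.51 (standard error 0.11, edgeR adjusted p = 0.293) and 0.45 without the 2 rats. Klf15 (ENSRNOT00000024011), a glucocorticoid-induced transcription factor, was at 37.0 to 97.8 (median 49.8) CPM in TKA rats and 24.2 to 36.0 (median 28.2) CPM in sham rats. Its groups did not overlap either, and its log2 fold-change of 1.11 (standard error 0.24, edgeR adjusted p = 0.293) was 0.63 without the 2 rats. Sgk1, a kinase of ion transport, differed in sign from most of this list, at a log2 fold-change of -0.38 (edgeR adjusted p = 0.735) with all rats and -0.77 without TKA rats 2 and 6.

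Inflammatory mediators, their receptors, and interferon-induced genes were higher in part. Of 17 tested inflammatory members (41 symbols), 12 were higher at an unadjusted p under 0.05 and 0 lower, and the median log2 fold-change was 1.11, and 0.75 without TKA rats 2 and 6. All named transcripts gave 26.5% higher and 12.7% lower. Among ligands and secreted proteins, Ccl2 (ENSRNOT00000009448), the monocyte chemoattractant, was at 0.530 to 57.2 (median 41.0) CPM in TKA rats, 15.3 to 32.2 (median 22.6) CPM in sham rats, and 9.13 to 14.0 (median 11.2) CPM in naive rats. The lowest TKA value was that of rat 2, and the other 5 TKA rats were at 30.4 to 57.2 (median 43.1) CPM, with 4 of them above every sham rat. The log2 fold-change was 0.67 (standard error 0.59, edgeR adjusted p = 0.745) with all rats and 0.92 (standard error 0.21, edgeR adjusted p = 0.154) without TKA rat 2. That rat was left out after its low value was seen, so the second value is a description and not a test. Tnfaip6 (ENSRNOT00000070792), a secreted hyaluronan-binding protein named after its values were seen, was at 1.01 to 8.81 (median 3.62) CPM in TKA rats and 0.361 to 1.48 (median 0.868) CPM in sham rats, with 4 TKA rats above every sham rat. Its log2 fold-change of 2.06 was 2.35 without the 2 rats, and edgeR's adjusted p was 0.439. Ptgs2 (ENSRNOT00000003567), the inducible cyclooxygenase, also named after its values were seen, was at 9.70 CPM in TKA rat 2 and 8.07 CPM in TKA rat 6, but at 0 to 0.829 CPM in the other 4 TKA rats, 0 to 1.56 (median 0.488) CPM in sham rats, and 0.291 to 3.17 (median 1.07) CPM in naive rats. For Ptgs2, the log2 fold-change was 2.42 (standard error 1.19, edgeR adjusted p = 0.572) with all rats and -0.34 without these 2.

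Among receptors, Il1r1 (ENSRNOT00000082146), the signaling receptor of interleukin-1, was at 7.67 to 19.4 (median 12.3) CPM in TKA rats, 5.30 to 7.07 (median 6.29) CPM in sham rats, and 3.05 to 5.71 (median 4.02) CPM in naive rats. TKA rats did not overlap with either other group, at a log2 fold-change over sham of 1.01 (standard error 0.21, edgeR adjusted p = 0.293) and 0.77 without TKA rats 2 and 6. Ackr3 (ENSRNOT00000026558), an atypical chemokine receptor, was at 13.8 to 25.9 (median 17.4) CPM in TKA rats and 8.90 to 13.1 (median 11.1) CPM in sham rats, apart in every rat, at a log2 fold-change of 0.75 (edgeR adjusted p = 0.325) and 0.54 without the 2 rats. Jak2 (ENSRNOT00000087011), the kinase of many cytokine receptors and outside the study's list, was at 53.5 to 82.7 (median 72.5) CPM in TKA rats and 40.5 to 59.7 (median 46.5) CPM in sham rats. Its groups overlapped, with 4 TKA rats above every sham rat (log2 fold-change 0.52, standard error 0.13, edgeR adjusted p = 0.411). Ch25h (ENSRNOT00000025856), which makes 25-hydroxycholesterol, was at 4.43 to 14.3 (median 6.59) CPM in TKA rats and 1.89 to 4.35 (median 2.71) CPM in sham rats, apart in every rat (log2 fold-change 1.37, edgeR adjusted p = 0.364, and 1.09 without the 2 rats). Anxa1 (ENSRNOT00000023664), a mediator that limits leukocyte recruitment, was at 67.7 to 124 (median 88.3) CPM in TKA rats and 44.9 to 84.0 (median 67.9) CPM in sham rats, and its groups overlapped (log2 fold-change 0.49, edgeR adjusted p = 0.533).

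Ifitm3 (ENSRNOT00000020265), an interferon-induced membrane protein that restricts viral entry, had the lowest p-value of the 15320. It was at 45.3 to 78.1 (median 63.9) CPM in TKA rats, 22.3 to 39.3 (median 34.7) CPM in sham rats, and 26.4 to 41.1 (median 27.7) CPM in naive rats. All TKA rats were above every sham and naive rat, and the log2 fold-change over sham was 0.94 (standard error 0.15, edgeR adjusted p = 0.196) and 0.96 without the 2 rats. Its relative Ifitm2 (ENSRNOT00000020216) was at 33.5 to 46.3 (median 37.2) CPM in TKA rats and 24.6 to 30.7 (median 27.2) CPM in sham rats, also apart in every rat (log2 fold-change 0.52, standard error 0.12, edgeR adjusted p = 0.300). The 2 genes are similar in sequence, and how shared reads were counted is not given, so their values are not independent. The interferon list as a whole was mixed, with 4 of 7 tested (23 symbols) higher at an unadjusted p under 0.05, 0 lower, and a median of 0.24. Among all named transcripts 26.5% were higher and 12.7% lower. Irf7 and Usp18, which interferon induces, were at log2 fold-changes of -0.09 and -0.24 (edgeR adjusted p = 0.900 and 0.878).

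Transcripts of vessels, sheath, and matrix were higher in every TKA rat in several cases. Cldn1 (ENSRNOT00000002640), a tight junction protein of the perineurial sheath, was at 26.7 to 61.6 (median 39.6) CPM in TKA rats, 10.4 to 21.6 (median 17.8) CPM in sham rats, and 10.1 to 22.6 (median 13.6) CPM in naive rats. No rat overlapped between TKA and either other group, and the log2 fold-change over sham was 1.29 (standard error 0.23, edgeR adjusted p = 0.234) and 1.11 without the 2 rats. Apold1 (ENSRNOT00000010289), an early response gene of endothelial cells, was at 13.3 to 36.7 (median 17.0) CPM in TKA rats and 5.10 to 11.6 (median 6.21) CPM in sham rats, apart in every rat. Its log2 fold-change was 1.498 (standard error 0.29, edgeR adjusted p = 0.234) and 1.23 without the 2 rats. Icam1 (ENSRNOT00000028066), the leukocyte adhesion molecule, was at 11.3 to 20.7 (median 14.6) CPM in TKA rats and 7.64 to 11.98 (median 9.17) CPM in sham rats, with 5 TKA rats above every sham rat (log2 fold-change 0.66, edgeR adjusted p = 0.469). Of the 8 endothelial markers tested (24 symbols), 6 were higher at an unadjusted p under 0.05, with a median of 0.82, and 4 without the 2 rats, with a median of 0.37. Of all named transcripts, 26.5% were higher with all rats and 10.5% without the 2.

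Of the 15 fibroblast and nerve sheath markers tested (30 symbols), 13 were higher at an unadjusted p under 0.05 with all rats and 7 without TKA rats 2 and 6, with medians of 0.82 and 0.55. The shares of all named transcripts were 26.5% and 10.5%. Apod (ENSRNOT00000073330), a lipid carrier of glia and fibroblasts, was at 482 to 1932 (median 684) CPM in TKA rats and 283 to 385 (median 349) CPM in sham rats. Each TKA rat was above every sham rat, but the log2 fold-change of 1.39 (standard error 0.31, edgeR adjusted p = 0.325) was 0.77 without the 2 rats. Outside the study's list, Timp1 (ENSRNOT00000013745), an inhibitor of matrix metalloproteinases, was at 41.1 to 75.8 (median 68.4) CPM in TKA rats and 39.4 to 48.5 (median 41.1) CPM in sham rats, with 5 TKA rats above every sham rat (log2 fold-change 0.62, standard error 0.14, edgeR adjusted p = 0.295). Plod3 (ENSRNOT00000001921), which hydroxylates collagen lysines, was at 65.7 to 82.6 (median 71.4) CPM in TKA rats and 45.1 to 64.8 (median 53.4) CPM in sham rats, apart in every rat (log2 fold-change 0.44, standard error 0.11, edgeR adjusted p = 0.373).

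Alkal2 and Vgf, both made by sensory neurons, were higher in 5 TKA rats than in any sham rat and low in TKA rat 2. Alkal2 (ENSRNOT00000006921), a ligand of the receptor tyrosine kinase ALK, was at 30.1 to 50.5 (median 34.9) CPM in 5 TKA rats and at 0 in TKA rat 2. It was at 3.99 to 17.8 (median 9.12) CPM in sham rats and at 0.300 to 4.13 (median 1.61) CPM in naive rats. Every one of the 5 was above every sham rat, and the median level was lowest in naive and highest in TKA rats. With all rats the log2 fold-change over sham was 1.67 (standard error 0.75, edgeR adjusted p = 0.557), and without TKA rat 2 it was 1.92 (standard error 0.29, edgeR adjusted p = 0.0864). TKA rat 2 was left out after its low value was seen, so the value without it is a description and not a test. The comparison of sham with naive rats gave 2.45 (edgeR adjusted p = 0.648), and that of TKA with naive rats gave 4.12 (edgeR adjusted p = 0.104). These comparisons share rats with the one of TKA and sham.

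Vgf (ENSRNOT00000041808), a neuropeptide precursor, was at 92.1 to 150.2 (median 99.7) CPM in the same 5 TKA rats and at 37.7 CPM in TKA rat 2. Sham rats were at 30.9 to 66.9 (median 53.8) CPM and naive rats at 28.0 to 33.6 (median 28.9) CPM, so 5 TKA rats were above every sham rat and rat 2 lay among them. The log2 fold-change was 1.002 (standard error 0.29, edgeR adjusted p = 0.505) with all rats and 1.16 (standard error 0.21, edgeR adjusted p = 0.0969) without TKA rat 2. Here too this rat was left out after its value was seen, so the second value is not a test. Calca (ENSRNOT00000055124), the precursor of the nociceptor peptide CGRP, was at 71.7 CPM in TKA rat 2, at 455 to 699 (median 684) CPM in the other 5, and at 429 to 606 (median 514) CPM in sham rats. For Calca, the log2 fold-change of 0.07 (standard error 0.38, edgeR adjusted p = 0.962) was 0.29 without TKA rat 2, and 4 TKA rats were above every sham rat. Htr2b (ENSRNOT00000023829), a serotonin receptor, had 0 counts in all naive rats and was at 0 to 0.868 (median 0.149) CPM in sham rats and 0.863 to 3.94 (median 1.41) CPM in TKA rats. In all, 5 of 6 TKA rats were above every sham rat, at levels near the lower end of what was tested (log2 fold-change 2.74, standard error 0.86, edgeR adjusted p = 0.518).

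**Figure D3:**
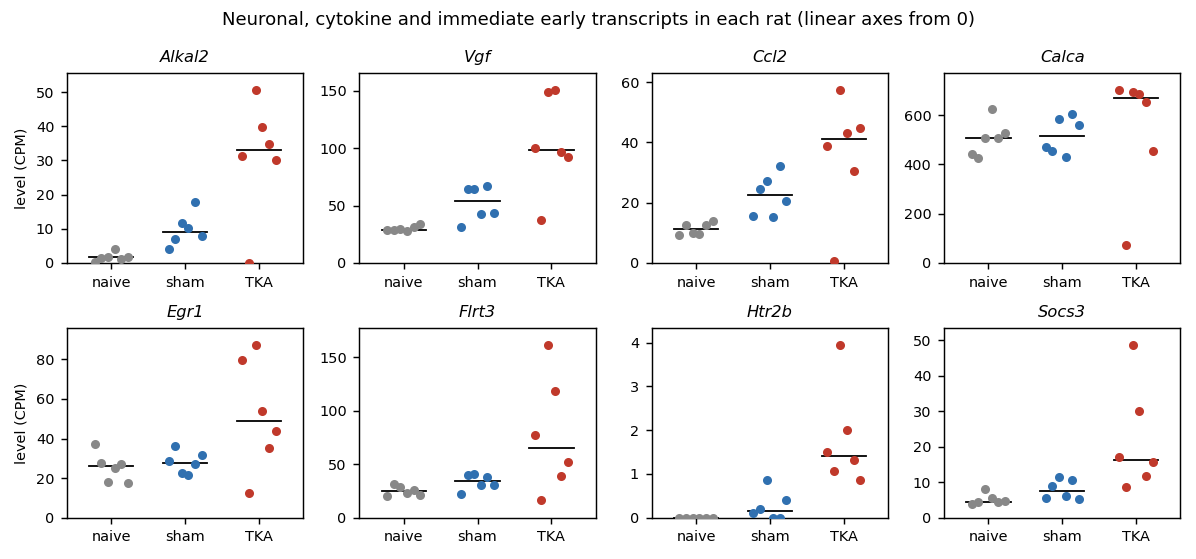
Level of 8 transcripts in each rat (CPM, linear axes from 0), with points from left to right for rats 1 to 6 of the naive, sham, and TKA groups and a line at the median. TKA rat 2 is the lowest TKA rat for Alkal2, Vgf, Ccl2, Calca, Egr1, Flrt3, and Socs3, and the other 5 TKA rats lie above every sham rat for Alkal2, Vgf, and Socs3.

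In the list of axon injury and growth genes, 7 of 12 tested (32 symbols) were higher at an unadjusted p under 0.05 and 3, the neurofilaments, lower. The median log2 fold-change was 0.74 with all rats and 0.83 without TKA rats 2 and 6. Tubb6 (ENSRNOT00000024947), a beta-tubulin, was at 32.5 to 54.4 (median 42.9) CPM in TKA rats, 18.4 to 33.2 (median 22.2) CPM in sham rats, and 17.9 to 23.6 (median 19.6) CPM in naive rats. In all, 5 of 6 TKA rats were above every sham rat, at a log2 fold-change of 0.83 (standard error 0.16, edgeR adjusted p = 0.234) and 0.81 without the 2 rats. Flrt3 (ENSRNOT00000006454), an adhesion molecule of growing axons, was at 16.8 to 161 (median 64.7) CPM in TKA rats and 22.4 to 41.1 (median 34.3) CPM in sham rats, with 4 TKA rats above and rat 2 below every sham rat (log2 fold-change 1.20, edgeR adjusted p = 0.533, and 1.55 without the 2 rats). Gadd45a (ENSRNOT00000007698), a stress gene, was at 36.1 to 160.2 (median 75.7) CPM in TKA rats and 31.1 to 66.4 (median 47.9) CPM in sham rats, with overlap (log2 fold-change 0.90, edgeR adjusted p = 0.533). Csrp3 (ENSRNOT00000019311), a LIM protein of injured sensory neurons and of muscle, was at 0.155 to 30.4 (median 1.51) CPM in TKA rats and 0 to 0.767 (median 0.322) CPM in sham rats. Its highest value was that of TKA rat 2, the rat with the highest muscle markers, and its log2 fold-change of 4.16 (standard error 1.19, edgeR adjusted p = 0.505) was 2.29 without that rat. Of the 9 nociceptor genes tested (42 symbols), 3 were higher and 1 lower at an unadjusted p under 0.05, shares near the 26.5% and 12.7% of all named transcripts. Without TKA rats 2 and 6, 6 were higher and 2 lower, against 10.5% and 9.87%, and the median log2 fold-change was 0.15 with all rats and 0.47 without the 2.

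Outside the study's list, Twf1 (ENSRNOT00000038032), an actin-binding protein, was at 95.3 to 147 (median 118) CPM in TKA rats, 68.1 to 99.0 (median 80.0) CPM in sham rats, and 68.8 to 79.8 (median 78.9) CPM in naive rats. In all, 5 of 6 TKA rats were above every sham rat, at a log2 fold-change of 0.56 (standard error 0.12, edgeR adjusted p = 0.293). With all 3 groups in one edgeR fit its adjusted p was 0.0396 at a fold-change under 1.5. Slc7a5 (ENSRNOT00000025784), a transporter of large amino acids, was at 138 to 214 (median 170.2) CPM in TKA rats and 104 to 131 (median 119) CPM in sham rats, apart in every rat (log2 fold-change 0.54, standard error 0.12, edgeR adjusted p = 0.331, and 0.36 without the 2 rats). In the study's list, Enc1 (ENSRNOT00000022144), Clec2g (ENSRNOT00000083188), and Best1 (ENSRNOT00000007320) were also apart in every rat, at log2 fold-changes of 0.79, 0.77, and 1.14. Rpl26-ps2 (ENSRNOT00000061041) was at 0.76, but it is a pseudogene of a ribosomal protein and its reads can come from near-identical copies.

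Among the lower transcripts described here, ligands such as Sema7a and Gas6 had small differences without overlap of the groups, and some scarce transcripts such as Dhrs2 and Pak2 had large ones with widely spread sham rats. Sema7a (ENSRNOT00000010620), a membrane-anchored semaphorin, was at 199 to 241 (median 236) CPM in TKA rats, 255 to 314 (median 295) CPM in sham rats, and 264 to 344 (median 323) CPM in naive rats. Every TKA rat was below every sham and naive rat, at a log2 fold-change over sham of -0.36 (standard error 0.08, edgeR adjusted p = 0.331) and -0.40 without TKA rats 2 and 6. Gas6 (ENSRNOT00000024677), the ligand of TAM receptors, was at 223 to 296 (median 269) CPM in TKA rats and 306 to 388 (median 366) CPM in sham rats, and Fgf9 (ENSRNOT00000015367), a fibroblast growth factor, at 30.7 to 43.1 (median 35.6) CPM and 45.6 to 60.7 (median 53.5) CPM. Neither ligand overlapped between the groups, and their log2 fold-changes were -0.43 and -0.55 (standard errors 0.10 and 0.11, edgeR adjusted p = 0.364 and 0.293). Without TKA rats 2 and 6 these were -0.34 and -0.46.

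Among receptors, Flt3 (ENSRNOT00000088957), a receptor tyrosine kinase, was at 22.3 to 33.3 (median 27.1) CPM in TKA rats, 35.0 to 46.3 (median 41.0) CPM in sham rats, and 36.7 to 56.4 (median 44.9) CPM in naive rats. All TKA rats were below all sham and naive rats, at a log2 fold-change over sham of -0.55 (standard error 0.12, edgeR adjusted p = 0.293). Oprd1 (ENSRNOT00000014084), the delta opioid receptor, was at 1.86 to 4.34 (median 2.51) CPM in TKA rats, 3.83 to 7.43 (median 5.89) CPM in sham rats, and 4.28 to 7.46 (median 5.17) CPM in naive rats. In 4 TKA rats it was below every sham rat, at a log2 fold-change of -0.97 (standard error 0.27, edgeR adjusted p = 0.469) and -0.86 without the 2 rats. Asic2 (ENSRNOT00000086961), an acid-sensing channel, and Lgi3 (ENSRNOT00000015104), a secreted neuronal protein, were named after their values were seen. Asic2 was at 6.57 to 18.1 (median 11.6) CPM in TKA rats and 16.5 to 26.7 (median 22.5) CPM in sham rats, with 5 TKA rats below every sham rat (log2 fold-change -0.94, edgeR adjusted p = 0.440, and -0.68 without the 2 rats). Lgi3 was at 293 to 473 (median 417) CPM in TKA rats and 507 to 589 (median 539) CPM in sham rats, apart in every rat (log2 fold-change -0.42, edgeR adjusted p = 0.441, and -0.33 without the 2 rats).

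Mafa (ENSRNOT00000010084), a large MAF transcription factor, was at 8.62 to 15.2 (median 12.5) CPM in TKA rats, 16.6 to 24.3 (median 18.6) CPM in sham rats, and 14.8 to 21.3 (median 19.2) CPM in naive rats, apart from sham rats in every rat. Its log2 fold-change was -0.70 (standard error 0.16, edgeR adjusted p = 0.355) and -0.64 without the 2 rats. Abcb9 (ENSRNOT00000045223), a lysosomal peptide transporter, was at 67.4 to 97.2 (median 90.0) CPM in TKA rats, 107 to 128 (median 122) CPM in sham rats, and 109 to 121 (median 113) CPM in naive rats. The TKA rats lay below all rats of both groups (log2 fold-change over sham -0.51, standard error 0.11, edgeR adjusted p = 0.293, and 0.0467 with all 3 groups in one fit). Without the 2 rats the log2 fold-change of Abcb9 over sham was -0.38. Acsf3 (ENSRNOT00000020313), a mitochondrial acyl-CoA synthetase, Hhatl (ENSRNOT00000026261), a relative of acyltransferases, and Chpf2 (ENSRNOT00000014082), an enzyme of chondroitin synthesis, were apart in every rat as well. Their log2 fold-changes were -0.40, -0.46, and -0.40.

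The neurofilaments, the structural proteins of large axons, were abundant and lower in part of the rats. Nefl (ENSRNOT00000018599) was at 5862 to 14078 (median 10577) CPM in TKA rats and 12462 to 15209.8 (median 13743) CPM in sham rats, Nefm (ENSRNOT00000018637) at 6065 to 12591 (median 9671) and 10994 to 14809 (median 13882) CPM, and Nefh (ENSRNOT00000011604) at 5848 to 12339 (median 8859) and 10327 to 13661 (median 12772) CPM. For each of the 3, 4 TKA rats were below every sham rat. Their log2 fold-changes of -0.44, -0.48, and -0.47 were -0.21, -0.29, and -0.28 without TKA rats 2 and 6 (edgeR adjusted p = 0.560, 0.533, and 0.534 with all rats).

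Among scarce transcripts, Dhrs2 (ENSRNOT00000024483), a short-chain dehydrogenase, was at 0 to 0.414 (median 0.363) CPM in TKA rats, 0.926 to 4.09 (median 2.82) CPM in sham rats, and 0 to 3.47 (median 1.73) CPM in naive rats. Each TKA rat was below every sham rat, but naive rats overlapped with both (log2 fold-change over sham -3.18, standard error 0.62, edgeR adjusted p = 0.234). Pak2 (ENSRNOT00000071060), a kinase of the cytoskeleton, was at 0.561 to 1.17 (median 0.745) CPM in TKA rats, 0.645 to 8.92 (median 4.34) CPM in sham rats, and 0.144 to 0.929 (median 0.377) CPM in naive rats. The sham rats held the high values here, at a log2 fold-change of TKA over sham of -2.57 (standard error 0.60, edgeR adjusted p = 0.334) and of sham over naive of 3.30 (edgeR adjusted p = 0.656). Zmiz2 (ENSRNOT00000052002), a transcriptional coactivator, was at 1.70 to 3.88 (median 2.67) CPM in TKA rats, 2.38 to 16.5 (median 12.4) CPM in sham rats, and 1.89 to 13.2 (median 3.37) CPM in naive rats, and Cryba2 (ENSRNOT00000024283), a crystallin, at 0.259 to 1.06 (median 0.682), 0.674 to 8.42 (median 3.79), and 0.388 to 3.90 (median 1.53) CPM. Both overlapped between TKA and sham rats, at log2 fold-changes of -1.99 and -2.40 (edgeR adjusted p = 0.293 and 0.364). These 4 are single transcripts of genes that may have others, whose reads the counting could have split.

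Several differences in markers of Schwann cells, muscle, and satellite glia were smaller or not seen without TKA rats 2 and 6. TKA rat 2 was set apart by the sums of all 3 kinds of markers. TKA rat 6 was set apart by that of Schwann cells but not by that of satellite glia. The smaller differences thus follow in part from how the 2 rats were chosen and are not a test. Of all named transcripts, 26.5% were higher and 12.7% lower with all rats, and 10.5% and 9.87% without the 2. Of the 15 Schwann cell markers tested (20 symbols), 12 were higher at an unadjusted p under 0.05 with all rats and 1, Egr2, without the 2 rats, with medians of 1.29 and -0.02. Of the 7 muscle markers (21 symbols), 5 and 0 were higher, with medians of 3.01 and 0.54. Acta1 (ENSRNOT00000024084), skeletal muscle actin, was at 22.3 to 6117 (median 382) CPM in TKA rats and 17.2 to 400.2 (median 84.8) CPM in sham rats (log2 fold-change 3.14, standard error 1.28, edgeR adjusted p = 0.535). Gfap (ENSRNOT00000034401), a filament of reactive glia, was at 39.5 to 1033 (median 112) CPM in TKA rats and 13.1 to 134 (median 30.8) CPM in sham rats, with 2 TKA rats above every sham rat (log2 fold-change 2.51, standard error 0.82, edgeR adjusted p = 0.523, and 0.92 without the 2 rats). For satellite glia 2 of 5 markers (16 symbols) were higher with all rats and 0 higher and 1, Fabp7, lower without the 2.

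Macrophage markers were higher in part, and their median was likewise smaller without the 2 rats. Of 15 tested (24 symbols), 7 were higher at an unadjusted p under 0.05, and 4 without TKA rats 2 and 6, with medians of 1.09 and 0.54. Of all named transcripts, 26.5% were higher with all rats and 10.5% without the 2. For 12 of the 15 the symbol came only from the study's tables of TKA rats. C1qc (ENSRNOT00000017065), a complement subunit, was at 16.9 to 51.6 (median 21.0) CPM in TKA rats, 5.59 to 17.1 (median 10.5) CPM in sham rats, and 6.26 to 18.3 (median 14.8) CPM in naive rats. In all, 5 of 6 TKA rats were above every sham rat, at a log2 fold-change of 1.20 (standard error 0.32, edgeR adjusted p = 0.441) and 0.85 without the 2 rats. P2ry6 (ENSRNOT00000050227), a receptor for UDP, was at 2.57 to 5.72 (median 3.47) CPM in TKA rats, 0 to 1.26 (median 0.700) CPM in sham rats, and 0.265 to 2.32 (median 1.22) CPM in naive rats, and each TKA rat was above every sham rat (log2 fold-change 2.53, standard error 0.71, edgeR adjusted p = 0.469). Steap4 (ENSRNOT00000011432), a metalloreductase induced in inflammation and named after its values were seen, was at 19.5 to 84.3 (median 23.9) CPM in TKA rats and 10.2 to 13.2 (median 11.8) CPM in sham rats, apart in every rat. Its log2 fold-change of 1.78 (edgeR adjusted p = 0.293) was 0.86 without the 2 rats. For hypoxia genes 7 of 9 tested (16 symbols) were higher with all rats and 4 without TKA rats 2 and 6, with medians of 0.49 and 0.21, and for sterol and fatty acid genes 4 of 7 (24 symbols) and 0, with medians of 0.42 and 0.09.

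**Figure D4:**
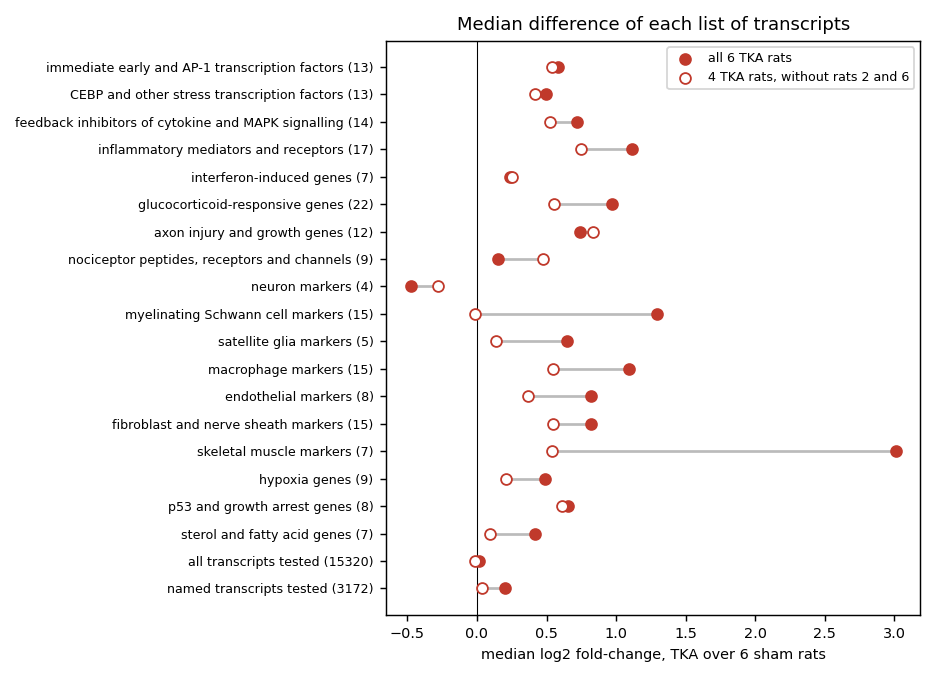
Median log2 fold-change of TKA over sham rats for each list (number of tested members in parentheses), with all 6 TKA rats (filled) and without TKA rats 2 and 6 (open). The median of Schwann cell markers is 1.29 with all rats and -0.02 without the 2, and that of immediate early factors is 0.58 and 0.54. The 2 rats were set apart by cell type marker sums, among them that of Schwann cells.

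**Figure D5:**
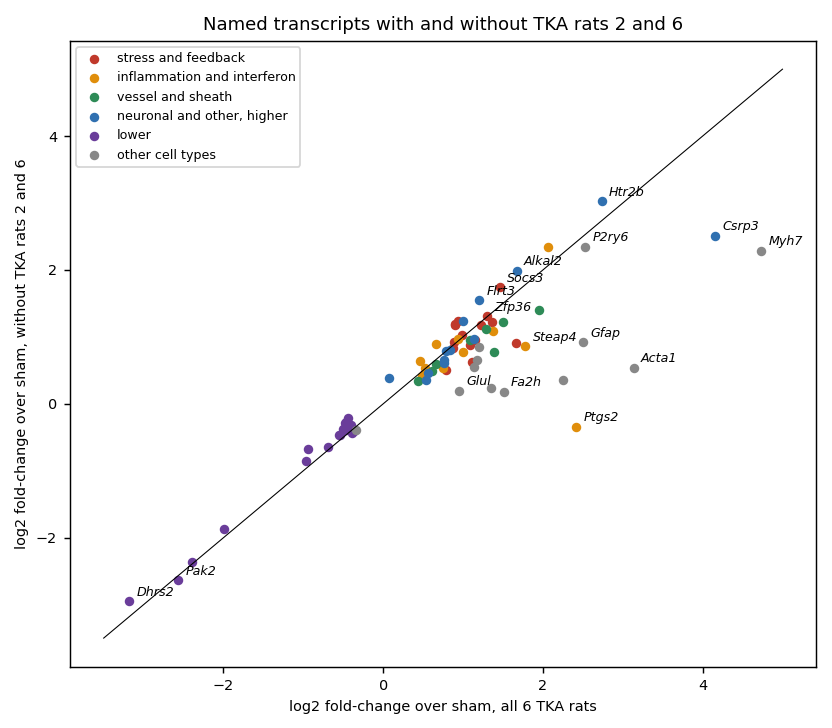
Log2 fold-change of TKA over sham rats for the 80 transcripts examined by name, with all 6 TKA rats (x) and without TKA rats 2 and 6 (y), and a line where both are equal. Myh7, Ptgs2, Acta1, Gfap, and Fa2h lie far under the line, and Zfp36, Socs3, Alkal2, and Flrt3 lie on or above it. The 2 rats were set apart by cell type markers, to which Myh7, Acta1, Gfap, and Fa2h belong.

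The response to surgery was also compared between rats labelled male and female. By edgeR's interaction test, 0 of 15320 transcripts (0.0%) had an adjusted p under 0.05 and 406 (2.65%) an unadjusted p under 0.05, with a lowest adjusted p of 0.9996. With 3 rats per sex and group, and with TKA rat 4 labelled female against its counts, a difference between sexes was not detectable here, which does not show that there is none. Without TKA rat 4 the count at an adjusted p under 0.05 was also 0.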

How the data were processed

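RNA was sequenced from the DRGs of 18 rats as paired-end reads of 150 bp. Per the labels and methods, the authors aligned them to rn6 with HISAT2, counted reads per Ensembl transcript with featureCounts, and deposited raw counts of 41078 transcripts without normalization. The annotation release and the strand and overlap settings are not given in the sources used here, so reads shared by isoforms or overlapping genes are uncertain. Each rat was 1 sample, grouped by its label. No 2 of the 12 rats had like counts (lowest chi-square per degree of freedom 19.8, median 40.0 over 66 pairs).

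TKA and sham rats were fitted with edgeR 4.0.16 in R 4.3.3 (filterByExpr, TMM, quasi-likelihood F test, Benjamini-Hochberg adjustment). The standard error of a log2 fold-change was derived from its F statistic. Plotted and printed levels are CPM scaled over all 18 rats. A call needed an adjusted p under 0.05 and a difference of 1.5-fold or more. Tests were repeated with DESeq2 1.42.0 (with a prior or none) and limma 3.58.1 voom with quality weights. Within edgeR, size factors (RLE), filters (none, or a mean of 50 counts or more), robust dispersions, a sex term, a fit of all 3 groups, a block for the rat number, and fits without single rats or without TKA rats 2 and 6 were tried. Scripts were tested on simulated data.

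Symbols of 3837 transcripts came from the tables of the study, which are shortened here. Its fold-changes and p-values were not used as values, but its tables, sorted by difference, set which transcripts carry a symbol. Of the 1355 transcripts at an unadjusted p under 0.05, 1244 carry one, against 3172 of all 15320 tested. The list counts, marker sums, and choice of named transcripts depend on this. Where a symbol had several transcripts, the one in the study's list was taken, or else the most abundant one. The named transcripts are the 15 higher and 10 lower with the lowest p-values, the 8 higher and 8 lower outside the study's list, the 3 members of each of 18 lists with the lowest p-values, and 12 chosen genes, and not all are printed or reported here. The rats, transcripts, and lists were chosen with earlier results of these data known. Values without TKA rat 2 alone were added after seeing the data.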

Additional observations from a re-analysis of the deposited data

Results flagged for a closer look

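In groups of 6 rats, a highest or lowest rat far from the other 5 (Dixon's test) was found in 33 of 261 groups. About 13.05 would be found by chance if the groups were independent and their levels normally distributed. They are not independent, since marker sums stand beside their own members, so 1 unusual rat can give many flags. Of the 33, 15 were TKA rat 2 and 5 were sham rat 1. Levels are in CPM, with the nearest other rat of the group in parentheses.

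TKA rat 2 was the highest TKA rat for the marker sums of skeletal muscle at 10281 (1222), satellite glia at 5371 (1527), and macrophages at 979 (408). It was likewise highest for Acta1 at 6117 (647), Myh7 at 947 (253), Des at 485 (76.4), and Csrp3 at 30.4 (5.25), which muscle expresses. The same held for the glial genes Glul at 1705 (547), Gfap at 1033 (145), and Egr2 at 249.97 (107), and for the complement genes C1qb at 52.1 (20.2) and C1qc at 51.6 (22.9). It also held for Nfkbia at 94.9 (57.1), Ch25h at 14.3 (7.82), and Clec2g at 113 (81.2). TKA rat 3 was highest for Zfp36 at 71.0 (54.3) and Htr2b at 3.94 (2.001), and TKA rat 6 lowest for Hhatl at 43.0 (61.6). Sham rat 1 was the highest sham rat for the summed satellite glia markers at 1666 (1073), Glul at 502 (314), Gfap at 134 (41.1), Myh7 at 39.7 (6.04), and C1qb at 19.7 (10.2), and sham rat 2 was lowest for Fabp7 at 34.4 (45.6).

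Among naive rats, rat 6 was highest for the summed muscle markers at 278 (90.7), Acta1 at 160.4 (51.9), and Des at 24.5 (12.4), and rat 5 for Myh7 at 5.44 (1.28). Naive rat 4 was highest for Gadd45a at 48.7 (34.7) and lowest for Cdkn1a at 1.13 (3.21), naive rat 1 highest for Ifitm3 at 41.1 (31.7) and Ptgs2 at 3.17 (1.15), and naive rat 2 for Zmiz2 at 13.2 (5.62). What set these rats apart was not tested.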

How the results depend on the processing

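The count of 0 calls between TKA and sham rats was kept in edgeR with RLE size factors, no filter, a minimum mean of 50 counts, robust dispersions, a sex term, no fold-change threshold, TKA rats 2 and 6 left out, and each rat left out in turn (0 to 0). Calls were made by DESeq2 with a prior (56) and without one (62), by all 3 groups in one fit (11), and by voom with quality weights (1), and the cause of these differences was not tested. The 1355 transcripts at an unadjusted p under 0.05 were 2760 with no filter on low counts (1513 higher and 1247 lower), with more transcripts tested, and ranged from 975 to 1659 with 1 rat left out (higher 607 to 1152, lower 312 to 587). The higher ones were 518 without TKA rats 2 and 6, and the lower ones 748 with voom. RLE size factors gave 886 higher and 469 lower. Transcripts whose rats did not overlap were 283 without TKA rats 2 and 6 (153 higher and 130 lower), and 153 to 265 with 1 rat left out (78 to 125 higher, 68 to 155 lower), since fewer rats overlap less often. The interaction of sex and surgery gave 1 call by DESeq2's likelihood ratio test, of ENSRNOT00000055281, which has no symbol here. Its count was 0 in edgeR without TKA rat 2, without TKA rat 4, and with RLE size factors.

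Pairing of the rats by number was not evident in most pairs, but 6 pairs cannot exclude it, and the numbers also follow the labelled sex. With the rat number as a block, 0 transcripts were called and 1035 had an unadjusted p under 0.05 (633 higher and 402 lower), and in 1 of 6 same-number pairs the correlation of the deviations exceeded 0.1, with 1 of 6 TKA rats correlating best with its own number. For 80 transcripts examined by name, 1749 of 1836 values under an alternative had the same direction and were not called, and 82 were called. Direction changed in 5 for 2 transcripts, Calca (log2 fold-change -0.15 with the block and -0.016 to 0.29 with 1 rat left out) and Ptgs2 (-0.34 without TKA rats 2 and 6). Total counts overlapped between the groups. The share of counting error in the spread between rats was not estimated, and it is larger for scarce transcripts such as Dhrs2, Htr2b, and Ptgs2.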
